A study of Mus musculus with 2 samples.

Results

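The genes described here are 10 components of the transforming growth factor beta (TGF-beta) pathway, taken by symbol from a table of 32531 genes. They comprise 3 ligands (Tgfb1, Tgfb2, Tgfb3), the signalling receptors Tgfbr1, Acvrl1 and Tgfbr2, the co-receptors Tgfbr3 and Eng, the latency protein gene Ltbp1 and the intracellular effector gene Smad3. All 10 had a row in both libraries, and all 10 passed the minimum of 10 counts in total that was needed to compare the libraries. The libraries hold RNA bound to tagged ribosomes of the cerebral cortex. The mice were adult, untreated and of the line Gdnf-EGFP/Rpl10a (ES2243), and the RNA was obtained by translating ribosome affinity purification (TRAP). In this method a tagged ribosomal protein is made in the cells in which the chosen driver, here Gdnf, is active, and RNA is recovered with antibodies to the tag. IP2 and IP1 were both immunopurified and form 1 group, so the study has no second condition, and differences between them are differences between replicates. Whether they stem from separate animals, pools or 1 homogenate is not stated, and their spread may be technical.

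TGF-beta ligands are secreted as latent complexes in which the propeptide stays bound to the growth factor and is tied to the matrix by latent TGF-beta binding proteins. Once released, the ligand brings together type II and type I receptor kinases, and the type I receptor phosphorylates SMAD proteins that move to the nucleus. In brain vessels this signalling runs between endothelial and mural cells and is needed for a stable vessel wall, and endothelial loss of ENG or ACVRL1 in humans causes hereditary haemorrhagic telangiectasia.

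The counted reads in genes totalled 72732502 in IP2 and 65200231 in IP1, so that a gene without counts could have held up to 3 counts, or 0.041 CPM in IP2 and 0.046 CPM in IP1. This limit and all intervals below cover counting error only. Levels are in CPM, the reads of a gene scaled to the total of all gene reads of its library, with no correction for transcript length, so they are compared between libraries and not between genes. Where genes of a list are picked by their reads, the order also reflects the lengths of their messages. The series design names pericytes as the profiled cells. All 10 pericyte markers reached 10 CPM in both libraries, but so did 10 of 10 neuron, 9 of 10 astrocyte, 8 of 8 oligodendrocyte precursor and 8 of 8 perivascular fibroblast markers, against 2 of 17 endothelial and 0 of 11 microglia markers. The counts below therefore belong to the immunopurified RNA and cannot be assigned to pericytes alone. Unpurified cortex RNA was not analysed here, and in bulk RNA fewer cells of a type and less RNA per cell cannot be told apart.

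Most of the pathway was present in the ribosome-bound RNA. In both libraries 8 of the 10 genes reached 10 CPM, against 47.0% of the 19580 genes with at least 1 count. The exceptions were Tgfb1, which lay close to that level, and Acvrl1, which was under 1.5 CPM. The median of the 10 genes was 30.1 CPM in IP2 and 28.6 CPM in IP1, and that of all genes with counts was 9.20 CPM in IP2 and 9.52 CPM in IP1. The plot of levels by gene shows both libraries side by side.

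**Figure D1:**
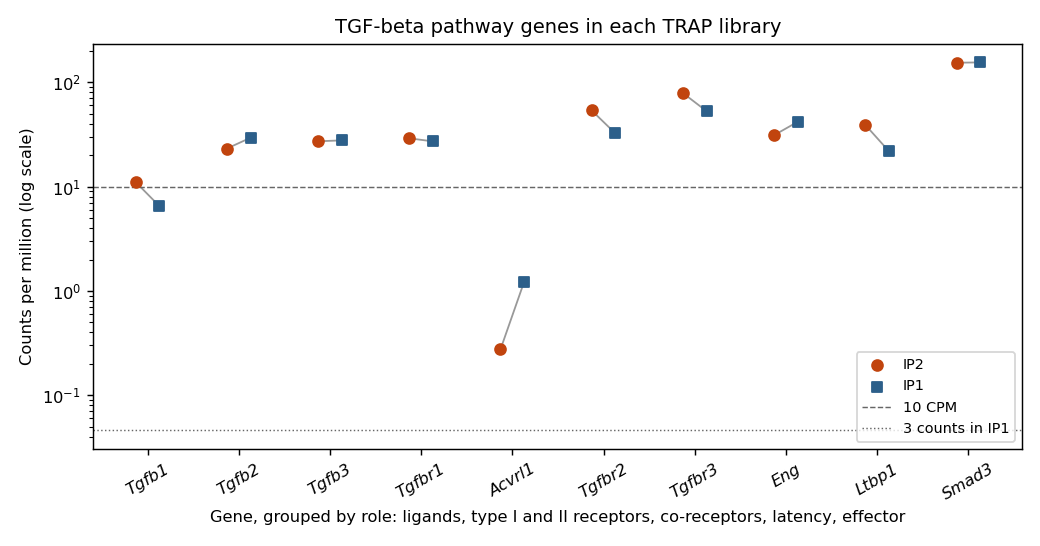
CPM (log axis) of the 10 TGF-beta pathway genes in IP2 (circles) and IP1 (squares), 1 point per library joined by a grey line; the dashed line marks 10 CPM and the dotted line 3 counts in IP1. Acvrl1, at 0.27 CPM in IP2 and 1.23 CPM in IP1, is the one gene far below the 10 CPM line, and the 2 points of Smad3 and of Tgfb3 lie at nearly the same height.

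The sequences upstream of 5 of these genes are shown because the genes differed between the libraries in opposite directions, as given below. They are the 250 bases before a transcription start listed in RefSeq, build GRCm38.p6, read 5′ to 3′ on the gene's strand. For Tgfb1, Tgfbr2 and Eng this start is the outer end of the annotated gene span. The listed start of Tgfb2 lies inside its span, so that the whole window is within the gene, and the window of Ltbp1 runs past the outer end of its span. Tgfb1, Tgfbr2 and Ltbp1 had higher levels in IP2, and Tgfb2 and Eng had lower levels in IP2.
Tgfb1, chr7:25686752-25687001, plus strand: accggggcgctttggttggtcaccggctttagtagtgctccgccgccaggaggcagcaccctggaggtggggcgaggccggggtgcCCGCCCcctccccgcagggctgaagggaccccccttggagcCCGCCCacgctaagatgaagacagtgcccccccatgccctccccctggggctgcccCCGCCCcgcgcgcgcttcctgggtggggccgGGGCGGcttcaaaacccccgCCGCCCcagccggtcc
Tgfbr2, chr9:116175364-116175613, minus strand: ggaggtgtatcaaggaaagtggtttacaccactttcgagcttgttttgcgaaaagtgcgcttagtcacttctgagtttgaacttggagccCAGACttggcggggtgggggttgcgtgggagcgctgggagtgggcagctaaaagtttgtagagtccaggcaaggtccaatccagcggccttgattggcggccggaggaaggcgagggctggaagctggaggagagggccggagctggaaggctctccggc
Ltbp1, chr17:75005279-75005528, plus strand: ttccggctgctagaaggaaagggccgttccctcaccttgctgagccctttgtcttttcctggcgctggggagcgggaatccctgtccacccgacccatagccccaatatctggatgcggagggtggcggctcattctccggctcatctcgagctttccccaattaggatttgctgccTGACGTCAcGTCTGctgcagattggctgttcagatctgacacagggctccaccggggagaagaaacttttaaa
Tgfb2, chr1:186705990-186706239, minus strand: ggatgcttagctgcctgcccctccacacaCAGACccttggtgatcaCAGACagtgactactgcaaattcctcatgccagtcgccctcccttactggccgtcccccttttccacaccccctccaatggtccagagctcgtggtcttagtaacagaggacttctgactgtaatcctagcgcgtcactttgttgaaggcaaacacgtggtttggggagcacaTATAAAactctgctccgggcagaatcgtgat
Eng, chr2:32646345-32646594, plus strand: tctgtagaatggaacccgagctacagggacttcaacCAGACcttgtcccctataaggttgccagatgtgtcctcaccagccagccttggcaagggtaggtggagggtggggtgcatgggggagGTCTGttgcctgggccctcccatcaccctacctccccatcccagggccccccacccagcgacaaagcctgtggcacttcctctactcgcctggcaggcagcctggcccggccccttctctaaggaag
Capitals mark matches, on either strand, to the core of the SMAD binding element (CAGAC, or GTCTG on the other strand), the GC box (GGGCGG or CCGCCC), the TATA box (TATAAA or TTTATA) and the cyclic AMP response element (TGACGTCA, the same on both strands). No match of one motif overlapped a match of another in these windows.

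The windows differed in make-up. That of Tgfb1 had a GC content of 75.2% and 5 GC boxes, with no match to the other 3 motifs, against a median GC content of 52.4% over 32851 windows of the same length. That of Tgfb2 had a TATA box starting at position -31 and 2 SMAD cores. Ltbp1, at the first of its 2 listed starts, had a cyclic AMP response element at position -73 followed by a SMAD core at -64. Tgfbr2 had 1 SMAD core and Eng 2. A SMAD core was found in 42.2% of all windows, a GC box in 32.7%, a TATA box in 12.4% and a cyclic AMP response element in 1.55%. SMAD cores thus stood upstream of genes that were higher and of genes that were lower in IP2. These matches describe letters only, and no binding was measured. The table held windows for 7 of the 10 genes.

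Among the ligands, each of which signals through the same receptor pair, the libraries differed most for Tgfb1 and least for Tgfb3. Tgfb1 (chr7:25687002-25705077, mm10), the ligand best known from immune cells and platelets, had 804 reads in IP2 and 424 in IP1. This was 11.1 CPM in IP2 and 6.50 CPM in IP1, with a mean of 8.78 ± 3.22 CPM (SD, n = 2). Its level was 1.70-fold higher in IP2, a log2 ratio of 0.76 with an exact 95% interval of 0.59 to 0.94.

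Tgfb2 (chr1:186622787-186709697), a ligand with a large role in heart and neural crest development, went the other way. It had 1684 reads in IP2 and 1919 in IP1, or 23.2 CPM in IP2 and 29.4 CPM in IP1 (mean 26.3 ± 4.44 CPM, SD, n = 2). The log2 ratio of IP2 over IP1 was -0.35 (exact 95% interval -0.44 to -0.25), larger than counting error and under 1.5-fold. Tgfb3 (chr12:86056743-86079041), the ligand known for its part in palate closure, had 27.2 CPM in IP2 and 27.7 CPM in IP1, from 1978 reads in IP2 and 1809 in IP1. That difference was within counting error (adjusted p = 0.59, two-sided exact binomial test with Benjamini-Hochberg adjustment over 17306 genes).

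The make-up of the ligand reads shifted accordingly, a measure that does not depend on how the libraries are scaled. Tgfb1 made up 18.0% of the 4466 ligand reads in IP2 (exact 95% interval 16.9 to 19.2%) and 10.2% of 4152 in IP1 (9.31 to 11.2%). The share of Tgfb2 was 37.7% in IP2 (36.3 to 39.1%) and 46.2% in IP1 (44.7 to 47.7%). Intervals of neither gene overlapped between the libraries, whereas those of Tgfb3 did, at 44.3% in IP2 (42.8 to 45.8%) and 43.6% in IP1 (42.1 to 45.1%). These intervals cover counting error only, and by level 76.2% of all tested genes passed the adjusted p of the exact binomial test. The exact test of edgeR was also run on levels with an assumed coefficient of variation of 0.2 between replicates. Its adjusted p values were 0.33 for Tgfb1 and 0.85 for Tgfb2. Longer transcripts give more reads, so these shares compare libraries and are not the proportions of the 3 messages.

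**Figure D2:**
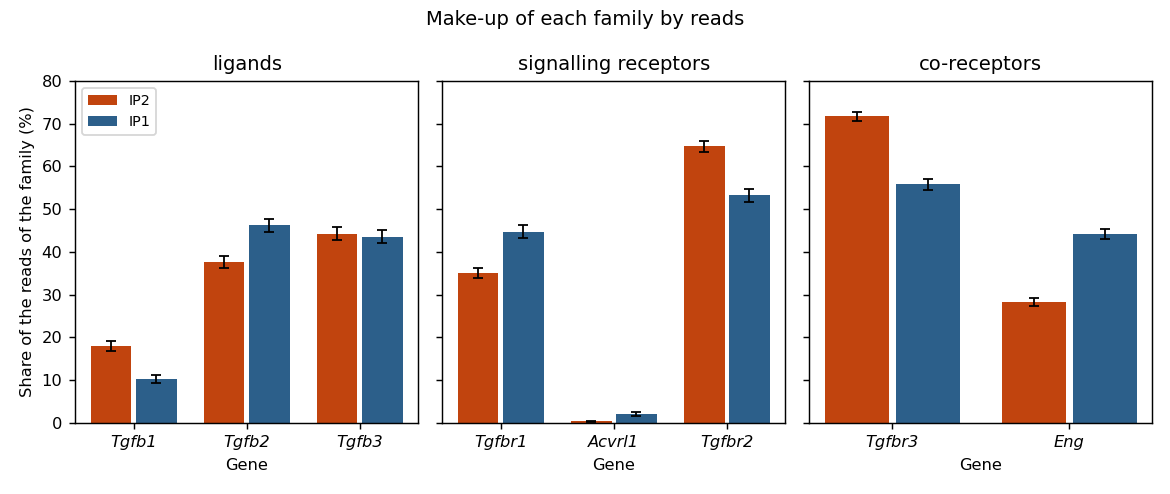
Share of the reads of each family (y axis, percent) taken by each gene (x axis), for the ligands, the signalling receptors and the co-receptors, with IP2 in orange and IP1 in blue; error bars are exact 95% intervals for counting error. In IP2 the shares of Tgfb1 (18.0%), Tgfbr2 (64.7%) and Tgfbr3 (71.7%) were above those in IP1 (10.2%, 53.3% and 55.8%).

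Of the signalling receptors, the type II receptor Tgfbr2 and the type I receptor Tgfbr1, which form the canonical TGF-beta receptor, were both well covered. Tgfbr2 (chr9:116087695-116175363), the kinase that binds ligand first, had 3906 reads in IP2 and 2108 in IP1. Its level was 53.7 CPM in IP2 and 32.3 CPM in IP1 (mean 43.0 ± 15.1 CPM, SD, n = 2), a log2 ratio of 0.73 (exact 95% interval 0.66 to 0.81). Tgfbr1 (chr4:47353222-47414926), the kinase that phosphorylates SMAD2 and SMAD3, had 2113 reads in IP2 and 1769 in IP1, or 29.1 CPM in IP2 and 27.1 CPM in IP1. The log2 ratio of Tgfbr1 was 0.10 (0.01 to 0.19), with an adjusted p of 0.045 by the exact binomial test, which was reached at a ratio of 1.07. There were 1.85 Tgfbr2 reads per Tgfbr1 read in IP2 and 1.19 in IP1, a difference that was not tested. A larger absolute log2 ratio than that of Tgfbr2 was found in 25.5% of tested genes.

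Acvrl1 (chr15:101128522-101145336), the type I receptor used mainly by endothelial cells and also bound by certain bone morphogenetic proteins, was barely detected. It had 20 reads in IP2 and 80 in IP1, or 0.27 CPM in IP2 and 1.23 CPM in IP1, above the limit that a count of 0 allows in both. The level was 4.38-fold lower in IP2, with a log2 ratio of -2.13 (exact 95% interval -2.94 to -1.44). It made up 0.33% of the reads of the 3 signalling receptors in IP2 (0.20 to 0.51%) and 2.02% in IP1 (1.61 to 2.51%). Of 7650 tested genes with a mean under 10 CPM, 12.9% had a log2 ratio below that of Acvrl1 and 19.3% one farther from 0 in either direction. At 1.5-fold, 20.4% of these genes were called higher in IP2 and 32.4% higher in IP1.

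Endothelial markers differed between the libraries in both directions. The 17 endothelial markers summed to 108 CPM in IP2 and 97.4 CPM in IP1. Of these, 7 were called higher in IP2 (Cdh5, Egfl7, Esam, Kdr, Pecam1, Slc2a1 and Tie1) and 2, Tek and Sox17, higher in IP1. Most of the list averaged under 10 CPM, where 20.4% and 32.4% of all tested genes were so called. Tek, an angiopoietin receptor gene, was at 1.004 CPM in IP2 and 3.36 CPM in IP1. Sox17, an arterial endothelial transcription factor gene, was at 0.16 CPM in IP2 and 0.72 CPM in IP1. In the other direction, Egfl7 had the largest ratio of the 7, at 2.03 CPM in IP2 and 0.71 CPM in IP1. All of these called markers were named after their values were seen. Cldn5, the tight junction gene of brain endothelium, had the fewest reads of the list, with 0 in IP2 and 5 in IP1. Emcn had the most, at 37.7 ± 6.23 CPM (SD, n = 2). The part of endothelial RNA in the level of Acvrl1 was not tested.

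The co-receptors differed from each other. Tgfbr3 (chr5:107106567-107289629), or betaglycan, which presents ligand and is needed above all for the high-affinity binding of TGF-beta 2 protein, had 5742 reads in IP2 and 3445 in IP1. Its level was 78.9 CPM in IP2 and 52.8 CPM in IP1 (mean 65.9 ± 18.5 CPM, SD, n = 2). The log2 ratio of 0.58 (exact 95% interval 0.52 to 0.64) was a ratio of 1.49, just short of the 1.5-fold needed for a call. With library sizes scaled by TMM, the log2 ratio was 0.63 and Tgfbr3 was called.

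Eng (chr2:32646595-32682669), or endoglin, a co-receptor that works with ACVRL1 in endothelium, had 2264 reads in IP2 and 2729 in IP1. Its level of 31.1 CPM in IP2 and 41.9 CPM in IP1 gave a log2 ratio of -0.43 (exact 95% interval -0.51 to -0.35), past counting error and under 1.5-fold. Its mean was 36.5 ± 7.59 CPM (SD, n = 2). There were 113 reads of Eng per read of Acvrl1 in IP2 and 34.1 in IP1, a ratio that also contains the lengths of both messages. Within the co-receptor pair, Tgfbr3 took 71.7% of the reads in IP2 (exact 95% interval 70.7 to 72.7%) and 55.8% in IP1 (54.5 to 57.0%). The annotated span of Eng overlaps that of the protein-coding gene Fpgs, and reads matching both were left out by the counting.

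Ltbp1 (chr17:75005480-75392512), which ties latent TGF-beta to the matrix, was the gene of the 10 with the largest ratio towards IP2. It had 2840 reads in IP2 and 1421 in IP1, or 39.0 CPM in IP2 and 21.8 CPM in IP1 (mean 30.4 ± 12.2 CPM, SD, n = 2). The log2 ratio was 0.84 (exact 95% interval 0.75 to 0.93), a 1.79-fold higher level in IP2. Its ratio was close to that of the ligand gene Tgfb1, and Ltbp1 gave 3.53 reads per Tgfb1 read in IP2 and 3.35 in IP1.

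Smad3 (chr9:63646766-63757994), the receptor-activated transcription factor of the pathway, differed least of the 10 genes when levels were scaled to total gene counts. It had 11203 reads in IP2 and 10122 in IP1, or 154 CPM in IP2 and 155 CPM in IP1 (mean 155 ± 0.86 CPM, SD, n = 2). The log2 ratio was -0.01 (exact 95% interval -0.05 to 0.03), and the difference was within counting error (adjusted p = 0.61, two-sided exact binomial test). With TMM scaling the log2 ratio of Smad3 was 0.04, so its sign is not defined. That of Tgfb3 was then smaller, at 0.02, so the order of these genes depends on the scaling. The coefficient of variation of Smad3 between the libraries was 0.56% and that of Tgfb3 1.41%, against a median of 10.5% over the 9656 genes that averaged 10 CPM or more.

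In all, 3 of the 10 genes (Tgfb1, Tgfbr2 and Ltbp1) were called higher in IP2 and 1 (Acvrl1) higher in IP1, at an adjusted p under 0.05 in the exact binomial test and a ratio of at least 1.5. Of all 17306 genes tested, 29.5% were called, 12.7% higher in IP2 and 16.8% higher in IP1. Among the 9656 genes that averaged 10 CPM or more, to which Tgfbr2 and Ltbp1 belong, 6.56% were called higher in IP2 and 4.42% higher in IP1. At a ratio of at least 2, 1 of the 10 genes (Acvrl1) was called, against 17.5% of all. On the adjusted p alone, 5 were higher in IP2 and 3 higher in IP1, against 33.4% and 42.8% of all genes, or 76.2% in both directions. Ratios as far from 1 as that of Ltbp1 were exceeded by 22.0% of tested genes, and ratios as far as that of Acvrl1 by 8.55%. The median log2 ratio was 0.04 for the 10 genes and -0.06 for all tested genes, and these counts are a description that does not set the 10 genes apart from the table. The test holds counting error alone. When a coefficient of variation of 0.2 between replicates was assumed in the exact test of edgeR, 1 of the 10, Acvrl1, stayed under the threshold (adjusted p = 0.0019). Of all 17306 genes, 2031 did so. The same 0.2 was assumed for every gene, also for Acvrl1 with its 20 and 80 reads. In this test the adjusted p values of Ltbp1, Tgfb1 and Tgfbr2 were 0.23, 0.33 and 0.35. The common coefficient of variation estimated from the 2 libraries was 0.22.

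**Figure D3:**
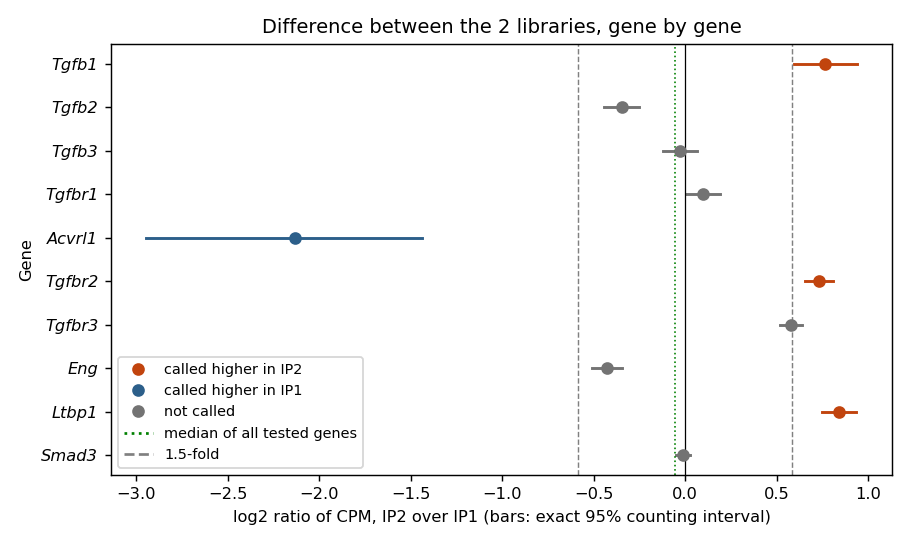
Log2 ratio of CPM, IP2 over IP1 (x axis), for each of the 10 genes, with exact 95% intervals for counting error as bars; dashed lines mark 1.5-fold and the dotted green line the median of all tested genes. Tgfb1, Tgfbr2 and Ltbp1 lie past 1.5-fold on the IP2 side, Tgfbr3 (0.58) sits on the line, and Acvrl1 (-2.13) has the widest interval, from 20 and 80 reads.

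The rest of the pathway was described by 6 lists of other components. Of 19 genes of latency, anchoring and activation, 10 were called higher in IP2 and 1 higher in IP1, against 12.7% and 16.8% of all tested genes. In this list 8 genes reached 10 CPM in both libraries, and the median log2 ratio was 0.60. The integrin subunit genes Itgb1 (194 CPM in IP2, 104 CPM in IP1), Itgav (102 CPM in IP2, 66.4 CPM in IP1) and Itgb8 (72.0 CPM in IP2, 37.2 CPM in IP1) were the 3 with the most reads. The pair encoded by Itgav and Itgb8 is a known activator of latent TGF-beta in the brain. The matrix protease genes Mmp2 (log2 ratio 1.36) and Bmp1 (1.42) had ratios above 2, and Itgb3, another partner of Itgav, was higher in IP1, at 0.92 CPM in IP2 and 2.13 CPM in IP1. Itgb6, an epithelial activator subunit, had 0 reads in IP2 and 2 in IP1.

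The SMAD, adaptor and mediator genes described next all averaged 10 CPM or more. Of all tested genes at that level, 6.56% were called higher in IP2 and 4.42% higher in IP1. Of the 7 other SMAD and adaptor genes, all 7 reached 10 CPM in both libraries and 1 was called. That gene was Zfyve9, the membrane anchor that presents SMADs to the receptor, with 18.5 CPM in IP2 and 12.1 CPM in IP1. Smad5 (173 CPM in IP2, 196 CPM in IP1), Smad2 (148 CPM in IP2, 157 CPM in IP1) and the SMAD-binding ubiquitin ligase gene Trim33 (150 CPM in IP2, 178 CPM in IP1) differed by less than 1.5-fold. The median log2 ratio of the list was -0.18. Of the 8 mediators outside the SMAD branch, 0 were called. The adaptor genes Tab2 (330 CPM in IP2, 319 CPM in IP1) and Dab2 (143 CPM in IP2, 158 CPM in IP1) and the ubiquitin ligase gene Traf6 (141 CPM in IP2, 145 CPM in IP1) had the most reads, Tab3 the fewest (20.0 CPM in IP2, 25.2 CPM in IP1), and the list median was -0.09. On the adjusted p of the exact binomial test alone, 2 of these 8 were higher in IP2 and 4 higher in IP1, against 33.4% and 42.8% of all tested genes.

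Of 14 negative regulators, 2 were called higher in IP2 and 0 higher in IP1, against 12.7% and 16.8% of all tested genes. The median log2 ratio of the list was 0.06. Fkbp1a (1293 CPM in IP2, 1204 CPM in IP1), whose product holds type I receptors inactive, the corepressor gene Ski (439 CPM in IP2, 435 CPM in IP1) and the ubiquitin ligase gene Smurf2 (294 CPM in IP2, 262 CPM in IP1) had the most reads. The 2 called genes encode cell-surface inhibitors. Bambi, a decoy receptor without a kinase, was at 4.92 CPM in IP2 and 1.86 CPM in IP1. Cd109, a co-receptor that promotes receptor breakdown, had 10 reads in IP2 and 1 in IP1.

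Of 14 textbook target genes, 6 were called higher in IP2 and 0 higher in IP1, against 12.7% and 16.8% of all tested genes, with a median log2 ratio of 0.13. Tgfbi, a matrix protein gene named for its induction by TGF-beta, was at 7.60 CPM in IP2 and 2.90 CPM in IP1, and the collagen gene Col4a1 at 32.1 CPM in IP2 and 15.2 CPM in IP1. Among the others, differences were under 1.5-fold. Tsc22d1, a leucine zipper gene, had 840 CPM in IP2 and 789 CPM in IP1, Tgfb1i1, a focal adhesion protein gene, had 181 CPM in IP2 and 201 CPM in IP1, and Nox4, an oxidase gene, had 2.54 CPM in IP2 and 2.47 CPM in IP1. Col1a2 (90.3 CPM in IP2, 47.6 CPM in IP1), a called gene, is also in the perivascular fibroblast list. These 14 genes respond to many signals, and pathway activity was not measured.

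**Figure D4:**
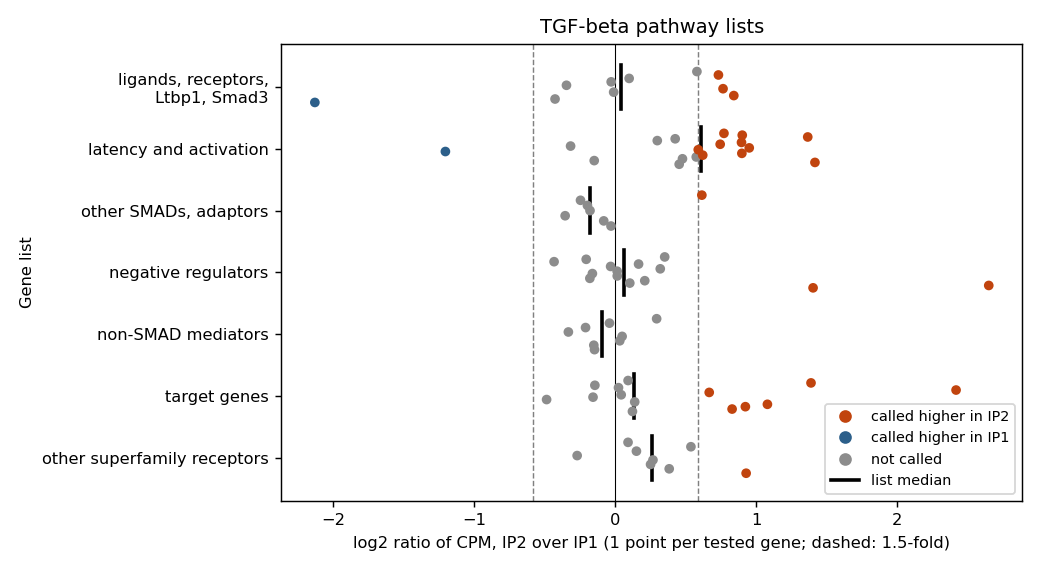
Log2 ratio of CPM, IP2 over IP1 (x axis), for every tested gene of the 10 described genes and of the 6 other pathway lists (rows), 1 point per gene, with black bars at list medians and dashed lines at 1.5-fold. The latency and activation list has the median farthest to the right (0.60), and no gene of the mediators outside the SMAD branch lies past a dashed line.

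Among the 9 other type I and type II receptors of the superfamily, which bind activins and bone morphogenetic proteins, 6 reached 10 CPM in both libraries. Of the 9, 1 was called higher in IP2 and 0 higher in IP1, against 12.7% and 16.8% of all tested genes. Bmpr2 (562 CPM in IP2, 528 CPM in IP1), Bmpr1a (116 CPM in IP2, 104 CPM in IP1) and Acvr2a (72.6 CPM in IP2, 60.3 CPM in IP1) had the most reads. Acvr1 was the called gene, with 29.8 CPM in IP2 and 15.6 CPM in IP1 (named after its values were seen). Amhr2, the receptor gene of anti-Müllerian hormone, had no count in either library. On the adjusted p of the exact binomial test alone, 7 of the 9 were higher in IP2 and 0 in IP1, against 33.4% and 42.8% of all tested genes. Apart from Acvr1 these ratios were under 1.5, for instance 1.06 for Bmpr2 and 1.11 for Bmpr1a, against 1.66 for Tgfbr2.

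Summed marker levels of several cell types were higher in IP2, as were Tgfb1, Tgfbr2 and Ltbp1. The summed level was 4085 CPM in IP2 and 2942 CPM in IP1 for the 8 perivascular fibroblast markers, 4576 CPM in IP2 and 3427 CPM in IP1 for the 10 astrocyte markers, and 3139 CPM in IP2 and 2534 CPM in IP1 for the 8 oligodendrocyte precursor markers. It was lower in IP2 for 10 neuron markers (14047 CPM in IP2, 16214 CPM in IP1), 8 arterial smooth muscle markers (1862 CPM in IP2, 2153 CPM in IP1) and 10 pericyte markers (6240 CPM in IP2, 6468 CPM in IP1). The pericyte difference was small, with a ratio of sums of 0.96, or 0.999 with TMM scaling. That sum is dominated by Rgs5 (4061 CPM in IP2, 4841 CPM in IP1). The 9 other pericyte markers summed to 2179 CPM in IP2 and 1627 CPM in IP1, and the median log2 ratio of the list was 0.42. The neuron sum is dominated by Snap25 (10795 CPM in IP2, 12770 CPM in IP1). The 9 other neuron markers summed to 3252 CPM in IP2 and 3444 CPM in IP1, and 0 of the 10 were called. Large parts of the fibroblast and astrocyte sums were Apod (2446 CPM in IP2, 1712 CPM in IP1) and Slc1a2 (2028 CPM in IP2, 1158 CPM in IP1). Olig1, the precursor marker with the most reads, was lower in IP2 (913 CPM in IP2, 985 CPM in IP1). On the adjusted p of the exact binomial test, 2 astrocyte, 2 precursor and 0 fibroblast markers were higher in IP1, and 8, 6 and 7 higher in IP2. Of all tested genes, 42.8% were higher in IP1 and 33.4% higher in IP2 by the same measure. Microglia, a known source of Tgfb1, had markers that summed to 38.0 CPM in IP2 and 32.5 CPM in IP1, with 3 of 11 called higher in IP2 and 1 higher in IP1. At means under 10 CPM, 20.4% and 32.4% of all tested genes were so called. None of the 11 was at 0. C1qa, the lowest by mean, was at 0.22 CPM in IP2 and 0.061 CPM in IP1. Trem2, a microglial receptor gene named after its values were seen, had 100 reads in IP2 and 3 in IP1 (log2 ratio 4.69, exact 95% interval 3.31 to 7.20). Mature oligodendrocyte markers summed to 2473 CPM in IP2 and 2262 CPM in IP1. The part of these cell types in the differences of the 10 genes was not tested.

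**Figure D5:**
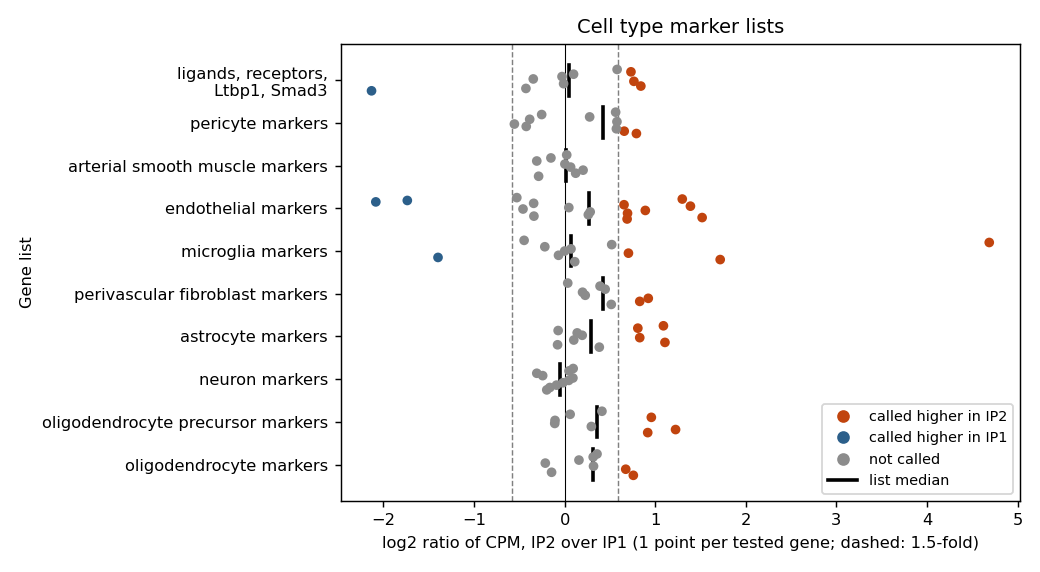
Log2 ratio of CPM, IP2 over IP1 (x axis), for every tested gene of the 10 described genes and of 9 cell type marker lists (rows), 1 point per gene, with black bars at list medians and dashed lines at 1.5-fold. The medians of the pericyte (0.42) and perivascular fibroblast (0.42) lists lie right of 0, that of the neuron list at -0.05, and the endothelial list has genes called in both directions.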

How the data were processed

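The submitters' processing notes name STAR (2.0.0e), HTSeq and the mm10 build. The annotation is not given in the sources used here, nor is the strand setting. The deposited files hold raw counts per gene symbol. Summary lines and a row named unknown (0 reads in IP2, 1 in IP1) were left out. Reads in genes were 57.7% of listed reads in IP2 and 58.1% in IP1, and reads aligned to several places, which were not assigned to genes, 31.5% and 31.2%. Of the 10 genes, Tgfb1, Tgfb3 and Acvrl1 overlap no other gene in RefSeq. The others overlap noncoding genes or pseudogenes, and Eng also Fpgs. Such reads may be missing or, without a strand setting, misplaced.

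CPM used the total of gene counts. Ratios carried a prior of 0.5 counts. Libraries were compared by a two-sided exact binomial test over 17306 genes with at least 10 counts. It sets the difference between 2 libraries of 1 group against counting error only, and is not a test of a condition. Calls needed a Benjamini-Hochberg adjusted p under 0.05 and a ratio of 1.5. The procedure was tested on simulated data that held counting error only, so that test does not cover spread between replicates. Exon lengths were not used here, so a planned level per kilobase was replaced by read shares within each library. The 10 genes and all lists were chosen with earlier results of these data known, and 4 genes (Tagln, Cnn1, Col1a1 and Col1a2) stand in 2 lists. Besides the 10 genes, the text names the 3 highest and the lowest gene of each pathway list, its called genes with a ratio of at least 2, and, from the marker lists, their summed levels and some of the highest and lowest genes. A gene that this rule names is not reported here. Tools were R 4.3.3, edgeR 4.0.16, DESeq2 1.42.0, Python 3.11.15, scipy 1.17.1, numpy 2.4.6 and pandas 2.3.3.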

Additional observations from a re-analysis of the deposited data

How the results depend on the processing

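The number of the 10 genes called between the libraries was 4, with 5 under TMM or DESeq2 size factors, where Tgfbr3 joined, and 4 without Rn45s in the total or without the filter. It was 1, Acvrl1, at a ratio of at least 2, and also 1 when the exact test of edgeR assumed a coefficient of variation of 0.2. In that edgeR test 2031 of all 17306 genes passed. The number at or above 10 CPM in both libraries was 8, with 9 at 1 CPM, 2 at 50 CPM, and 8 to 9 when either library was left out. Of 40 alternative log2 ratios, 34 kept direction and call. Those that changed sign were within counting error, namely Tgfb3 (0.0217 under TMM, 0.0215 under DESeq2 size factors) and Smad3 (0.0393 and 0.0391 under the same scalings), and Tgfbr3 passed 1.5-fold (0.63 under both). Here the cause was the alternative's own construction, since both scalings raised every log2 ratio by nearly the same amount. With 1 library left out no ratio exists. Levels and ligand shares per kilobase were not run, since no exon lengths were used. No paired analysis was possible because there is a single group. Of the 10 genes, depth limits Acvrl1 most, with 20 reads in IP2 and 80 in IP1.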
